A study of Mus musculus with 6 samples.

Results

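Il31ra encodes the ligand-binding chain of the receptor for the cytokine made by Il31. It was examined in embryonic cortex together with 8 further genes of the same signaling family, namely the receptor chains Il6st, Osmr, Lifr, Cntfr and Il6ra, the kinase Jak1, the transcription factor Stat3 and the feedback inhibitor Socs3. These 9 genes were listed by symbol among the 17068 genes of a filtered count table, and all 9 were present. Il31ra was chosen on its lower counts in these same libraries, and the other 8 were listed around it with earlier results of these data known. Differences between the groups in the 9 genes are therefore given as a description, with no test.

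The counts came from bulk sequencing of RNA from lateral cortex at E12.5, taken within the presumptive somatosensory region of 6 female embryos on a c57/bl6 background. The 4 controls carried no Cre. Controls 1, 2 and 4 were Foxp1 fl/+ and control 3 was Foxp1 fl/fl. The other 2 libraries, Foxp1 fl/fl;Emx1Cre, are labelled Foxp1cKO. Emx1Cre recombines in progenitors of the dorsal telencephalon and their progeny, so that blood vessels, meninges and microglia in the same tissue keep the floxed allele intact. All 6 embryos carried at least 1 floxed Foxp1 allele. In bulk tissue, fewer cells of a type and less RNA per cell cannot be told apart.

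Foxp1, the targeted gene, measured 59.7, 60.8, 71.2 and 79.1 CPM (counts per 1000000 counts of the library, after edgeR's TMM scaling) in controls 1 to 4, and 83.2 and 76.8 CPM in the libraries labelled Foxp1cKO. Its log2 fold change, labelled Foxp1cKO against control, was 0.24 (SE 0.129, adjusted p = 0.468 by the quasi-likelihood test of edgeR, adjusted by Benjamini-Hochberg over all genes). This is a total over all exons and does not separate the floxed ones. Because it was not lower, the groups are named by their labels. Totals ran from 50076008 to 78346979 counts per library. Of 10 cortical marker genes, 9 were in the filtered table. They summed to 1598 to 2105 CPM in controls and 1780 to 1807 CPM in the libraries labelled Foxp1cKO.

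Receptors of this family share a common logic. A cytokine is caught by a chain specific to it, and the signal is carried by gp130, the protein of Il6st, or by a gp130-like chain such as those of Lifr, Osmr and Il31ra. JAK kinases held on the receptor tails phosphorylate STAT3, which enters the nucleus and switches on genes that include Socs3, whose protein then blocks the receptor. The receptor for the Il31 cytokine is the exception in not using gp130, since it pairs Il31ra with Osmr. In adult animals it is best known from itch-sensing neurons, whereas in the developing cortex gp130 and Lifr signaling is known for driving radial progenitors toward astrocytes.

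The gene starts of Il31ra, of its neighbor Il6st and of Socs3 are shown because Il31ra is the member set apart by its counts, Il6st lies beside it, and Socs3 is a classical STAT3 target. Each run is the 250 bases before the RefSeq start (GRCm38.p6), 5′ to 3′ on the gene's own strand, at chr13:112580663-112580912 (minus strand) for Il31ra, chr13:112463820-112464069 (plus strand) for Il6st and chr11:117969367-117969616 (minus strand) for Socs3. RefSeq and GENCODE M21 place some starts differently. The runs for Il31ra and Socs3 end at their RefSeq starts, which lie inside the GENCODE M21 gene spans given with the counts further on, and distances to neighboring genes are measured from those spans. Capitals mark matches to the STAT-type motif TTCNNNGAA.
Il31ra: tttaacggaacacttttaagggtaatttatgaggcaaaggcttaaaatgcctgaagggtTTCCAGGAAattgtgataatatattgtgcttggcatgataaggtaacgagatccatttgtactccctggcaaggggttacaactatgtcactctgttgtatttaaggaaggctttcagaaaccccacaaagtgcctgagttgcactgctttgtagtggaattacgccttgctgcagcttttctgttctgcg
Il6st: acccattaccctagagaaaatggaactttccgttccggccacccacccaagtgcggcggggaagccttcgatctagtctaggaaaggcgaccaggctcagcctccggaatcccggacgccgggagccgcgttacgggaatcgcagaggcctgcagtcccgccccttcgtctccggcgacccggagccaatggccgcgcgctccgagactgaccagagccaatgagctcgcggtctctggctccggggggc
Socs3: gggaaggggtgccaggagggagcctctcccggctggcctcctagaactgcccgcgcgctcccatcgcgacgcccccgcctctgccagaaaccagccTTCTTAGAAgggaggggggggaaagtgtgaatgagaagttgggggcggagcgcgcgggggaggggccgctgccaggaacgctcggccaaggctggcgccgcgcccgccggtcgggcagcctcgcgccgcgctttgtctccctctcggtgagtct

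RefSeq windows running from 250 bases before to 50 bases after the start were searched on both strands, and the 9 genes have 15 of them. The motif TTCNNNGAA reads the same on either strand and occurred in 2 of the 15 windows, those of Il31ra and Socs3, with its first base 191 and 154 bases before the start. It also occurred in 2726 of all 32851 windows, or 8.3%. The forkhead motif TGTTTAC, the type of site bound by FOXP proteins, had 0 matches in the 15 windows and was present in 3.65% of all windows. The Il31ra window had a GC content of 44.7% and 6 CpG, the lowest GC content of the 15, against 68.3% and 33 CpG for Il6st and 73.3% and 31 CpG for Socs3. The median of all windows was 52.7% GC and 7 CpG, and 22.0% of windows had a lower GC content than that of Il31ra. These matches describe the sequence and are not evidence of binding.

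In the control cortex the 9 genes spanned a wide range of levels, which were compared as CPM per kilobase of annotated exon (mean ± SD, n = 4 controls). Cntfr, the ligand-binding chain for ciliary neurotrophic factor, was highest at 46.2 ± 7.53, above 95.1% of genes on this scale. Il31ra was next at 19.8 ± 3.22, above 83.9% of genes. Il6st, which encodes the shared chain gp130, stood below both at 5.85 ± 1.32 CPM per kilobase. Jak1, the kinase that gp130-type receptors depend on, lay between Il31ra and Il6st at 9.81 ± 0.627. Socs3 (3.32 ± 0.165) and Stat3 (2.93 ± 0.218) followed. Lifr, the receptor for leukemia inhibitory factor, measured 1.35 ± 0.141. At the bottom, Il6ra, the interleukin receptor chain that pairs with gp130, was at 0.111 ± 0.0193 and Osmr, the oncostatin M receptor and the partner of Il31ra, was at 0.0916 ± 0.0251, above 4.16% of genes.

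Most steps in this order were larger than the spread between controls. Each neighboring pair kept its order in 4 of 4 controls without overlap of their ranges, except for Socs3 and Stat3, which kept their order in each control but overlapped in range, and Il6ra and Osmr, which were in that order in only 2 of 4. Using the longest annotated transcript as the length, Stat3 (4.63) stood above Socs3 (3.77) and Osmr (0.202) above Il6ra (0.111), so neither pair has a fixed order. The remaining order was the same.

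**Figure D1:**
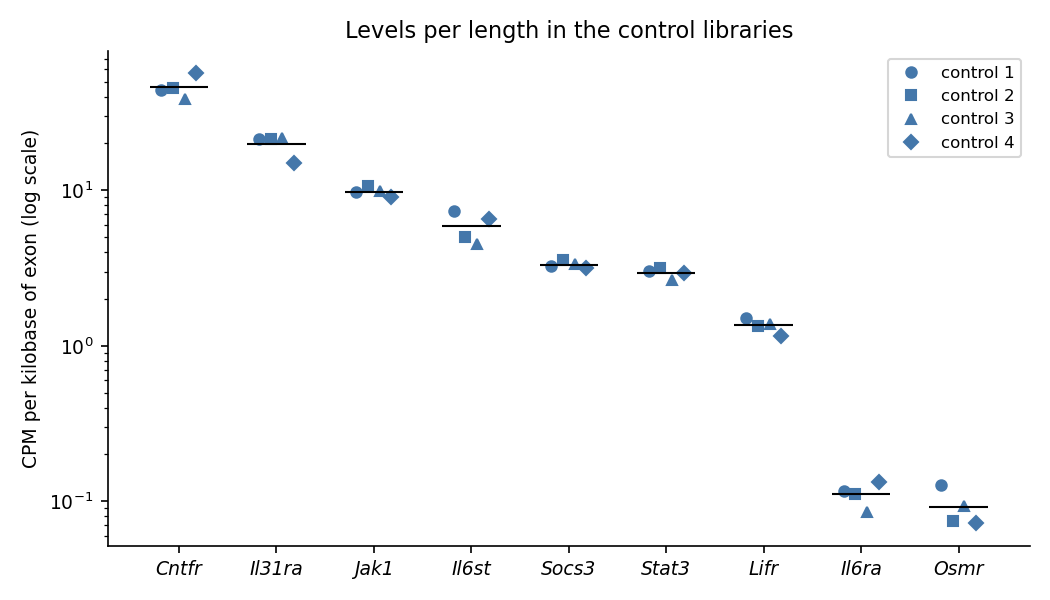
Levels of the 9 genes in the 4 control libraries, as CPM per kilobase of annotated exon on a log axis, with a point for each control and a line at each mean. Cntfr and Il31ra lead at 46.2 and 19.8, while Il6ra and Osmr are at the bottom at 0.111 and 0.0916.

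Il31ra (ENSMUSG00000050377.8) lies on the minus strand of chromosome 13 at 112519898 to 112594360 (GRCm38, GENCODE M21). It measured 122, 121, 122 and 85.1 CPM in controls 1 to 4, and 41.6 and 46.9 CPM in libraries 1 and 2 labelled Foxp1cKO. Controls 1 to 3 lay close together, control 4 was the lowest control, and both labelled Foxp1cKO libraries lay below all 4 controls. The means were 112.5 ± 18.3 CPM (SD, n = 4) and 44.2 ± 3.76 CPM (SD, n = 2), a ratio of 0.393 and a log2 fold change of -1.35 (SE 0.171). These values rest on 2091 to 8903 counts per library. Leaving out control 4, the log2 fold change was -1.46, and it stayed between -1.46 and -1.26 whichever library was left out.

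Neuronal markers also varied between these libraries. Tbr1, a transcription factor of early-born cortical neurons, was lowest in control 4 at 251.5 CPM, with 349 to 490 CPM in controls 1 to 3 and 303 and 339 CPM in the libraries labelled Foxp1cKO. Neurod2, a neuronal differentiation factor, was 249, 274, 254 and 130.2 CPM in controls 1 to 4 and 139 and 224 CPM in the libraries labelled Foxp1cKO. Control 4 thus had the least of both neuronal markers among controls, while 5 other cortical markers, those of progenitors and dorsal identity, were highest there among controls (Emx1 at 135.5 CPM, Emx2 at 121 CPM, Pax6 at 245 CPM, Lhx2 at 614 CPM and Hes5 at 47.6 CPM). Of the 9 cortical markers, 0 were apart between the groups. Tbr1 and Neurod2 were chosen from the list after their values were seen, and the part of these cells in the Il31ra values was not tested.

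**Figure D2:**
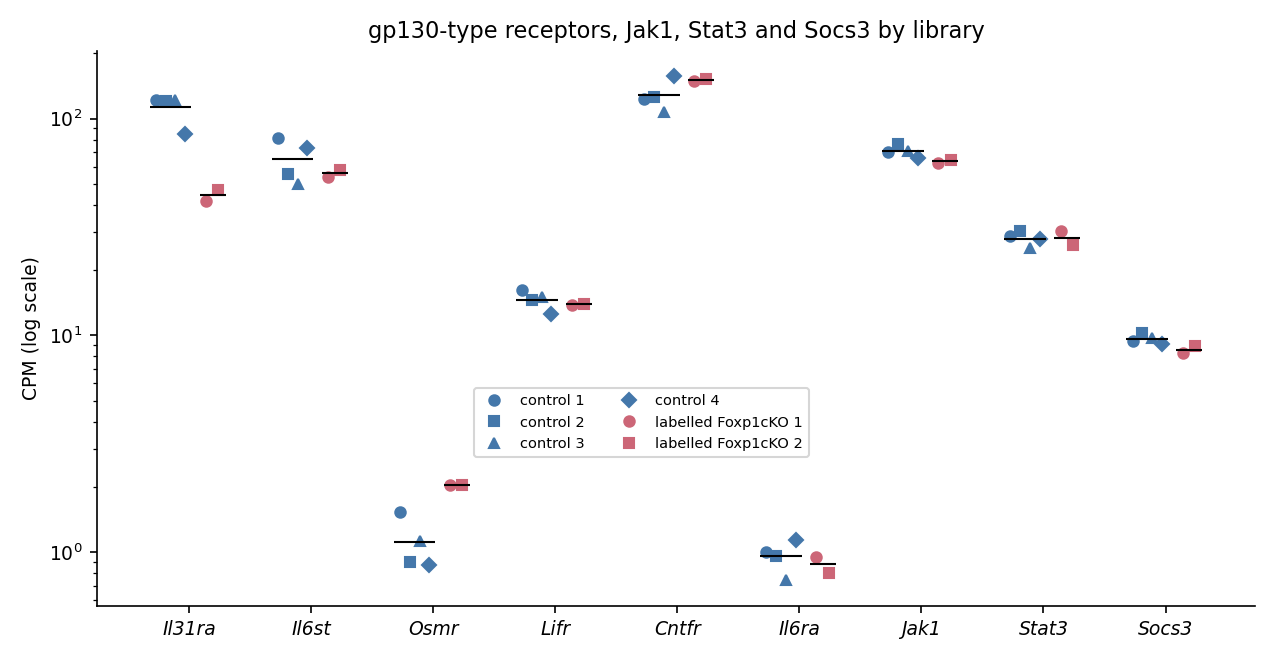
CPM of the 9 genes in each of the 6 libraries on a log axis, with controls in blue, libraries labelled Foxp1cKO in red and a line at each group mean. The groups are apart for Il31ra, Osmr, Jak1 and Socs3 and overlap for the other 5 genes.

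Il6st (ENSMUSG00000021756.12, chromosome 13, 112464070 to 112510086, plus strand) encodes gp130, to which the Il31ra protein is related, and lies beside Il31ra. It measured 81.3, 55.8, 49.8 and 72.8 CPM in controls 1 to 4 and 53.7 and 58.2 CPM in the libraries labelled Foxp1cKO. The labelled Foxp1cKO libraries sat among the lower controls. The group means were 64.9 ± 14.7 and 55.9 ± 3.14 CPM, with a log2 fold change of -0.21 (SE 0.200). Among controls, Il6st followed the order of several marker sums, which were picked after their values were seen. Meningeal and mesenchymal markers summed to 583, 381, 181.5 and 99.7 CPM in controls 1, 4, 2 and 3, and 158 and 353 CPM in the libraries labelled Foxp1cKO. Endothelial markers (209.6, 165.8, 137.9 and 136.1 CPM) had the same order in these controls. So did microglia and macrophage markers (38.5, 34.9, 30.4 and 23.1 CPM), while the other marker lists did not. All 8 genes of the meningeal and mesenchymal list had counts, and 0 of the 8 were apart between groups. The part of any of these cells in the Il6st values was not tested.

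Set beside each other in the same library, the ratio of Il31ra to Il6st CPM does not depend on library scaling. It was 1.50, 2.17, 2.46 and 1.17 in controls 1 to 4 and 0.774 and 0.806 in the libraries labelled Foxp1cKO. Both of the latter lay below all 4 controls. It is a ratio of CPM and not per length. On the log2 scale the group means were 0.80 ± 0.49 and -0.34 ± 0.042, a difference of -1.15 that ranged from -1.34 to -0.98 on leaving out single libraries.

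**Figure D3:**
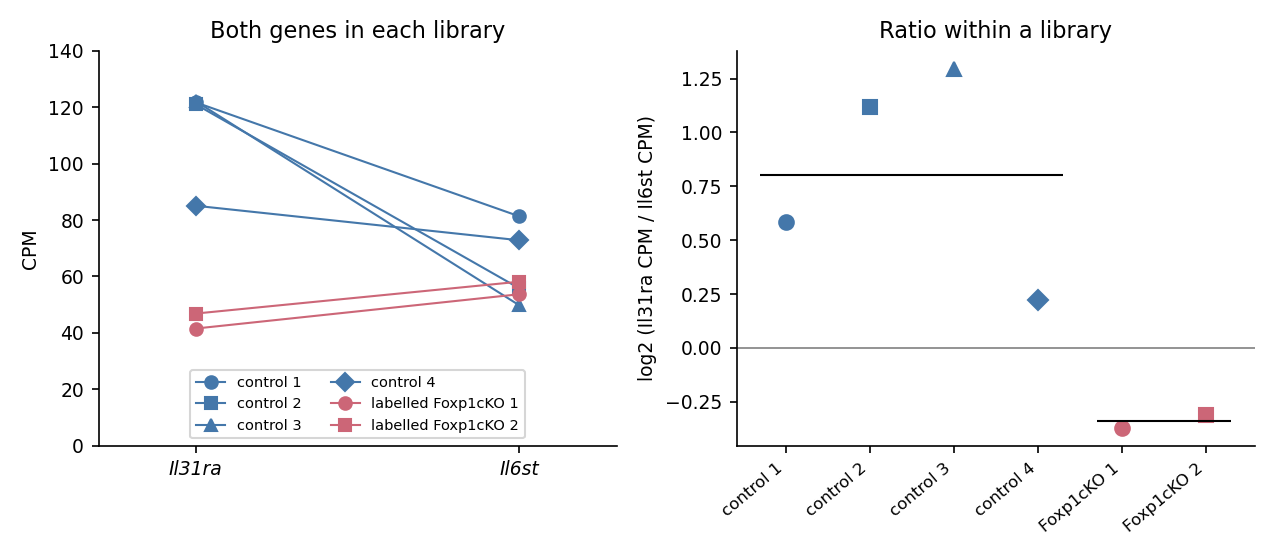
Left, CPM of Il31ra and Il6st joined by a line for each library. Right, the log2 ratio of Il31ra to Il6st CPM in each library with a line at each group mean, at 0.80 for controls and -0.34 for libraries labelled Foxp1cKO.

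Osmr (ENSMUSG00000022146.12, chromosome 15, 6813577 to 6874969, minus strand) is the chain with which Il31ra forms its receptor, and it went the other way. It measured 1.53, 0.901, 1.13 and 0.876 CPM in controls 1 to 4, and 2.05 and 2.04 CPM in the libraries labelled Foxp1cKO. Both of the latter lay above all controls, at means of 1.11 ± 0.304 and 2.05 ± 0.00237 CPM. The log2 fold change was 0.88 (SE 0.281), resting on only 56 to 155 counts per library. With limma on the deposited variance-stabilized values, which compress low counts, it was 0.38. In the same libraries the summed markers of mural cells, which ensheath vessels, were 283 to 288 CPM against 194 to 228 CPM in controls. Of these 6 mural markers, 4 lay above all controls (Rgs5, Cspg4, Abcc9 and Notch3) and 0 were at 0. Of all genes, 11.5% lay above all controls in this way. Microglia and macrophage markers summed to 37.5 to 41.2 CPM against 23.1 to 38.5 CPM in controls, with 3 of 8 above all controls (C1qa, C1qc and Ptprc). Endothelial markers summed to 162 to 201 CPM against 136 to 210 CPM, with 1 of 8 above all controls (Pecam1). The part of these cells in the Osmr values was not tested.

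Lifr (ENSMUSG00000054263.12, plus strand, chromosome 15, 7090614 to 7197489) lies 215.6 kb from Osmr. It measured 16.2, 14.5, 15.0 and 12.5 CPM in controls 1 to 4 and 13.9 and 14.0 CPM in the libraries labelled Foxp1cKO, so that the groups overlapped. Its log2 fold change was -0.065 (SE 0.132). The ratio of Osmr to Lifr was 0.0622 to 0.0947 in controls and 0.148 and 0.146 in the libraries labelled Foxp1cKO, both above all controls.

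Of the chains that bind ligand without signaling themselves, Cntfr (ENSMUSG00000028444.17, chromosome 4, 41657498 to 41697089, minus strand) measured 123.5, 126, 107 and 157 CPM in controls 1 to 4 and 149 and 152 CPM in the libraries labelled Foxp1cKO. Control 4 was the highest of the 6, and the groups overlapped, with a log2 fold change of 0.23 (SE 0.143). Il6ra (ENSMUSG00000027947.11, chromosome 3, 89864059 to 89913196, minus strand) was near 1 CPM throughout, at 0.741 to 1.14 CPM in controls and 0.954 and 0.804 CPM in the libraries labelled Foxp1cKO. Its log2 fold change was -0.13 (SE 0.268) on 48 to 90 counts per library, a difference smaller than its standard error.

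Inside the cell, Jak1 (ENSMUSG00000028530.14, chromosome 4, 101152367 to 101265282, minus strand) measured 70.2, 76.6, 71.2 and 65.6 CPM in controls 1 to 4 and 62.5 and 64.3 CPM in the libraries labelled Foxp1cKO. The groups did not overlap, but control 4 and labelled Foxp1cKO library 2 were close, and the log2 fold change was -0.16 (SE 0.0840). Stat3 (ENSMUSG00000004040.16, chromosome 11, 100885098 to 100939540, minus strand) measured 28.6, 30.2, 25.2 and 27.8 CPM against 30.2 and 26.2 CPM, which is the same range in both groups. Its log2 fold change was 0.013 (SE 0.107), and the sign turned when control 3 or labelled Foxp1cKO library 1 was left out. Socs3 (ENSMUSG00000053113.3, chromosome 11, 117966079 to 117970047, minus strand), the feedback inhibitor that carries the STAT-type motif printed above, measured 9.38, 10.2, 9.69 and 9.13 CPM against 8.31 and 8.90 CPM. Its groups did not overlap, and its log2 fold change was -0.16 (SE 0.128), close to that of Jak1 and far smaller than that of Il31ra.

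Counted together, 3 of the 9 genes (Il31ra, Jak1 and Socs3) lay below all controls in both libraries labelled Foxp1cKO, and 1 (Osmr) lay above. Over all genes, 13.1% lay below and 11.5% above all controls in this way. The median log2 fold change was -0.13 over the 9 genes and -0.0044 over all genes. Because the set was chosen on this contrast, nothing is read from these shares.

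The wider pathway was covered by 63 listed genes, of which 48 were in the filtered table. Absence of the others from this table does not show that they had no counts. None of these 48 was called by the quasi-likelihood test of edgeR, adjusted by Benjamini-Hochberg, and the lowest adjusted p among them was 0.236, while 0.152% of all genes were called. At an unadjusted p under 0.05 there were 12 (25.0%, 8 higher and 4 lower), against 13.0% of all genes. DESeq2 called 3 (Junb higher, Pias3 and Socs2 lower), and 2.97% of all genes. In all, 10 (20.8%) lay above all controls and 4 (8.33%) below, against 11.5% and 13.1% of all genes, and the median log2 fold change was 0.079 against -0.0044.

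Of 12 listed ligands, 5 were in the filtered table, with a median log2 fold change of 0.30. Clcf1, a ligand of the Cntfr receptor complex, was 0.974 to 1.78 CPM in controls and 2.31 and 2.29 CPM in the libraries labelled Foxp1cKO, a log2 fold change of 0.76 (SE 0.296, adjusted p = 0.363 by edgeR). Both libraries lay above all controls without passing the test. Ctf1, which encodes cardiotrophin, a ligand for the gp130 and Lifr pair, was 2.31 to 3.80 CPM in controls and 3.36 and 3.32 CPM in the libraries labelled Foxp1cKO. Of 8 related receptors, 4 were in the filtered table. Il11ra1, the ligand-binding chain for a further gp130 cytokine, was 5.74 to 8.37 CPM against 7.11 and 7.40 CPM, and Lepr, the leptin receptor, was 1.69 to 5.60 CPM against 2.07 and 2.94 CPM, both overlapping. Csf3r, the granulocyte colony-stimulating factor receptor, was 0.451 to 0.710 CPM in controls and 1.05 and 1.00 CPM in the libraries labelled Foxp1cKO, above all controls (log2 fold change 0.90, SE 0.272, adjusted p = 0.289 by edgeR).

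Of 7 kinases and adaptors, Ptpn11, the phosphatase that links gp130 to the MAP kinase route, was the one whose groups did not overlap. It measured 236 to 265 CPM in controls and 204 and 213 CPM in the libraries labelled Foxp1cKO, a log2 fold change of -0.28 (SE 0.0793, adjusted p = 0.278 by edgeR). Jak3, a kinase best known from lymphocytes, was 1.95 to 3.26 CPM against 3.20 and 4.48 CPM. Grb2, an adaptor toward Ras, was 91.3 to 107 CPM against 96.5 and 94.9 CPM, and its groups overlapped. Of the other STAT genes, Stat4 had a log2 fold change of 0.97 (SE 0.583, adjusted p = 0.510 by edgeR). Stat5b was 22.9 to 28.2 CPM in controls and 33.9 and 29.2 CPM in the libraries labelled Foxp1cKO (log2 fold change 0.35, SE 0.118, adjusted p = 0.314 by edgeR). Stat4 was 0.782 to 4.08 CPM in controls, a range that took in 1 of the 2 labelled Foxp1cKO libraries, at 4.05 and 4.39 CPM. Stat2, which serves interferon receptors, was 21.4 to 29.7 CPM against 32.6 and 26.6 CPM, also overlapping.

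All 14 inhibitors had counts, and their median log2 fold change was 0.051. The most abundant, Pias2 and Socs7, overlapped between the groups, with log2 fold changes of 0.071 (SE 0.0737) and 0.050 (SE 0.0895). Socs2, which restrains growth hormone receptor signaling, was 39.4 to 42.8 CPM in controls and 33.2 and 30.9 CPM in the libraries labelled Foxp1cKO (log2 fold change -0.37, SE 0.0798, adjusted p = 0.236 by edgeR). Pias3, an inhibitor of STAT3 binding to DNA, was 22.2 to 24.2 CPM against 18.2 and 15.5 CPM (log2 fold change -0.45, SE 0.105, adjusted p = 0.242 by edgeR). Both lay below all controls. Among 16 STAT3-responsive genes, 12 were in the filtered table. Of these, 4 (33.3%, against 11.5% of all genes) lay above and 1 (8.33%, against 13.1%) below all controls. Junb, an AP-1 subunit, was 1.73 to 2.07 CPM in controls and 3.14 and 4.43 CPM in the libraries labelled Foxp1cKO (log2 fold change 1.00, SE 0.212, adjusted p = 0.236 by edgeR). Icam1, an adhesion molecule of vessels and leukocytes, was 1.45 to 2.20 CPM against 2.60 and 2.91 CPM, and Pim1, a survival kinase, was 26.2 to 30.1 CPM against 32.2 and 31.9 CPM. Mcl1, a BCL2-family survival protein, was 152 to 166 CPM against 136.9 and 131 CPM. Cebpd, a transcription factor, was 0.288 to 0.914 CPM against 0.994 and 1.52 CPM. The median log2 fold change over the 12 was 0.046.

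**Figure D4:**
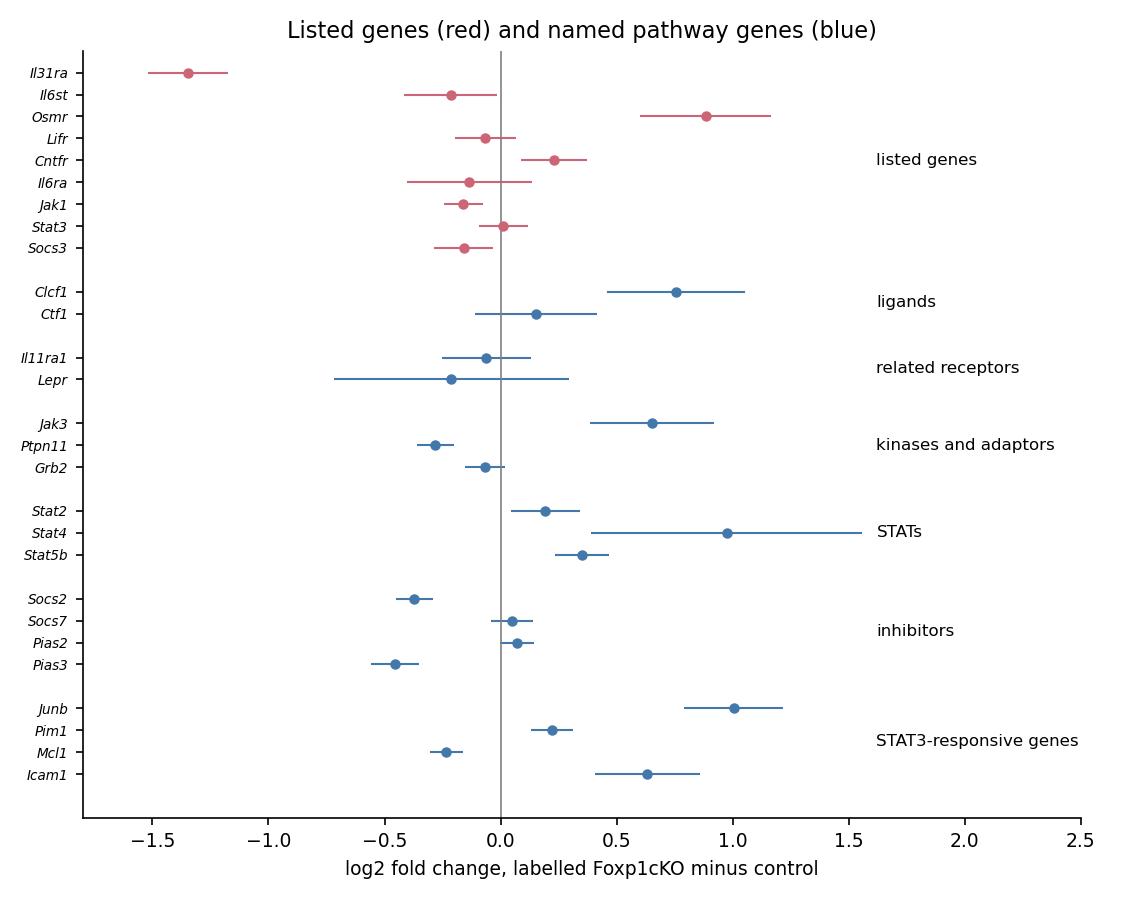
Log2 fold change, labelled Foxp1cKO against control, of the 9 listed genes in red and of wider pathway genes in blue, grouped by role. Each gene has a point with an SE bar. The blue points are the pathway genes named in the text, without Csf3r and Cebpd. Il31ra is the lowest of these points at -1.35 and Junb the highest at 1.00.

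Il31ra and Il6st are convergent neighbors. Their 3′ ends face each other across 9811 bp, with 0 annotated genes between them. Within 1 Mb of Il31ra, 20 genes were in the filtered table, Il6st included. Of these, 1 was called by the quasi-likelihood test of edgeR, adjusted by Benjamini-Hochberg. It was Esm1, a secreted proteoglycan of endothelial tip cells 615 kb away, with a log2 fold change of 3.20 (SE 0.300, adjusted p = 0.0175). This call was lost without control 1, control 2 or either labelled Foxp1cKO library. In the 20 genes, 4 (20.0%) lay above and 3 (15.0%) below all controls, against 11.5% and 13.1% of all genes, 7 (35.0%, against 13.0%) had an unadjusted p under 0.05, and the median log2 fold change was -0.14. DESeq2 called 2 of the 20, Esm1 and Dhx29.

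Within 500 kb there were 11 genes, 0 of them called by edgeR, 1 by DESeq2 (Dhx29) and 5 (45.5%, against 13.0% of all genes) with an unadjusted p under 0.05. Ddx4, a germ-cell RNA helicase 3.97 kb beyond the 5′ end of Il31ra, was 0.600 ± 0.297 CPM in controls and 1.43 ± 0.341 CPM in the libraries labelled Foxp1cKO (log2 fold change 1.26, SE 0.466, adjusted p = 0.345 by edgeR). Ankrd55, on the far side of Il6st, was 0.969 ± 0.256 against 1.59 ± 0.0506 CPM. These low-count genes were higher beside a lower Il31ra. Dhx29, an RNA helicase used in translation, was 80.9 ± 4.02 against 64.2 ± 3.17 CPM (log2 fold change -0.33, SE 0.0804, adjusted p = 0.242 by edgeR), and Mtrex, a helicase of the nuclear exosome, was 170 ± 6.21 against 151 ± 2.60 CPM (log2 fold change -0.17). The remaining neighbors were the transporter gene Slc38a9 at -0.18, the lipid phosphatase gene Plpp1 at 0.043, the peroxidase gene Gpx8 at -0.21, and Cdc20b and Gm10735 at -1.39 and -1.08 with under 1 CPM in controls. Among these neighbors with at least 1 CPM in controls, the lowest log2 fold change was that of Dhx29. Gm3226, a processed pseudogene on the same strand, overlaps the 5′ end of the Il31ra gene span by 618 bp. Union-mode counting assigns reads in the counted part of both genes to neither, and the size of that shared part was not measured. Gm3226 was 5.27 ± 2.15 against 4.74 ± 0.0444 CPM (log2 fold change -0.15).

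**Figure D5:**
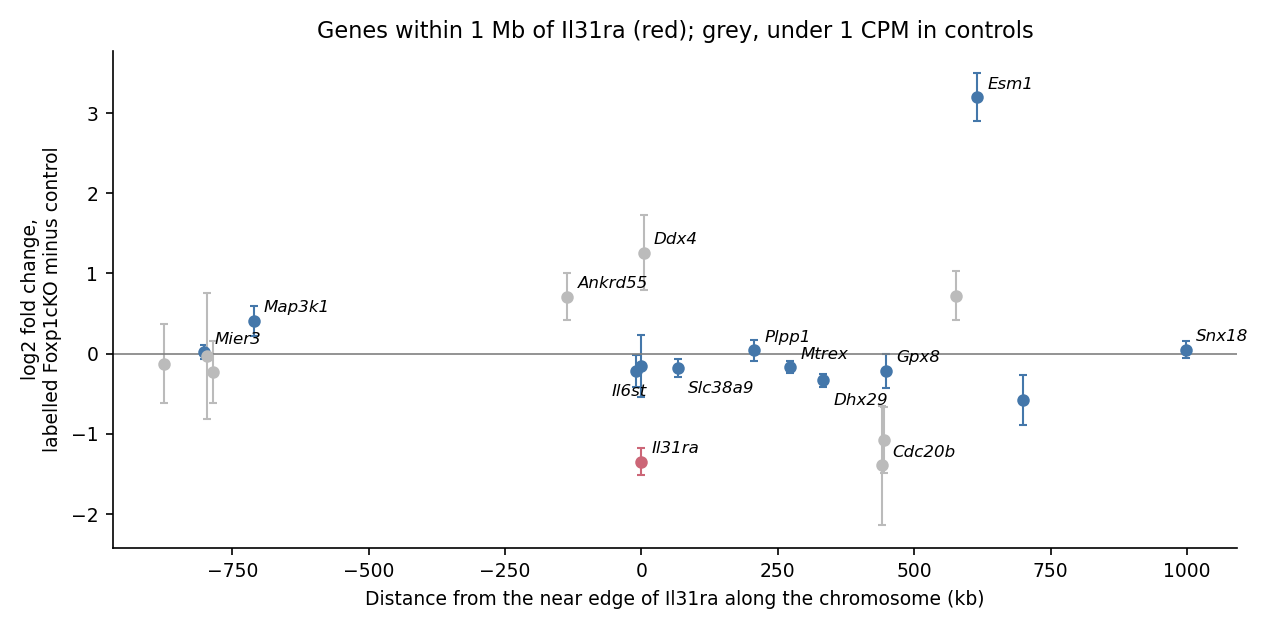
Log2 fold change, labelled Foxp1cKO against control, of the genes within 1 Mb of Il31ra against their distance from it in kb, with SE bars and with genes under 1 CPM in controls in grey. Il31ra in red is at -1.35, Il6st beside it is at -0.21 and Esm1 is at 3.20.

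Across the 6 libraries, the genes whose log2 CPM followed Il31ra most closely by Pearson's r, among 13854 genes with a mean of at least 1 CPM, were Yars (0.997), a transfer RNA synthetase, Supt7l (0.996), a SAGA complex subunit, Ykt6 (0.995), a SNARE of vesicle fusion, Gm4285 (0.995) and Faim (0.994), an apoptosis inhibitor. Their log2 fold changes ran from -0.46 to -0.17, so their differences were far smaller. They shared the low values in both labelled Foxp1cKO libraries and, like Il31ra, were lowest among controls in control 4. They did not share the order of Il31ra among controls 1 to 3. Among the family, Socs3 (0.880) and Jak1 (0.869) were the most alike, while Il6st was at 0.247, Lifr at 0.483, Osmr at -0.740 and Cntfr at -0.753. With 6 libraries that share 1 difference between groups, these are descriptions only.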

How the data were processed

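RNA from E12.5 lateral cortex was made into stranded paired-end libraries by the authors, aligned to mm10 with STAR and counted on genes with HTSeq 0.9.1 in union mode. The deposited table holds whole counts, unnormalized, of 17068 genes that passed the authors' filter on low counts. The authors also deposited variance-stabilized values of these counts, on a log2-like scale, used here only for an alternative. The strand setting of the counting was not given in the sources used here.

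Groups came from the sample labels. The labels do not say which embryos shared a litter, a term of the study's model. Counts were fitted with edgeR 4.0.16 (glmQLFit and glmQLFTest, TMM, group alone, R 4.3.3) over all 17068 genes, with Benjamini-Hochberg adjustment and a threshold of 0.05. SE is the log2 fold change divided by the square root of its F statistic. Correlations used log2 CPM with a prior count of 2. Positions, exon lengths and symbols came from GENCODE M21 on GRCm38, the assembly of mm10 but another release than the authors' annotation, in which 17047 identifiers were found and 21 were not. Promoter windows came from RefSeq, GRCm38.p6. With 4 libraries against 2, the smallest exact two-sided p of a rank test is 0.133, so no such test was run.

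Totals of 50076008 to 78346979 counts put 3 counts at 0.0381 to 0.0596 CPM, which covers counting error only, since amplified reads are not independent molecules. Nothing ties the libraries to separate litters, so p-values measure the spread between these embryos. Per gene, a chi-square comparison of counts gave 25.9 to 193 for pairs of controls and 31.4 for the pair labelled Foxp1cKO, so each library was counted as its own replicate.

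Members and gene lists were chosen with earlier results of these data known. Named genes were Foxp1, the 9 members, pathway genes called or, in each role, among the 2 most abundant or, with a mean of at least 1 CPM, the 2 largest log2 fold changes, neighbors within 500 kb of Il31ra, and the 5 genes most alike to it. Some other genes whose groups were apart were named after their values were seen. Not every listed gene is reported here. Alternatives were DESeq2 1.42.0, its size factors, total counts, limma 3.58.1 with a trend on the deposited values, edgeR's filter on low counts, a replicate block, transcript length and each library left out. The main edgeR fit, DESeq2 and limma on log2 CPM were also run on simulated counts. The other alternatives were not.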

Additional observations from a re-analysis of the deposited data

Results flagged for a closer look

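Of 43 named genes, 4 had a control whose gap to the nearest other control took up more of the range of the 4 controls than Dixon's limit allows. This limit is passed by chance in about 5% of groups. Il31ra was flagged at 0.968, because control 4 measured 85.1 CPM and controls 1 to 3 measured 121 to 122 CPM. Yars, chosen for its likeness to Il31ra, was flagged at 0.937 with control 4 also lowest, at 93.5 CPM against 99.7 to 100.1 CPM. Il11ra1 was flagged at 0.878, with control 3 at 5.74 CPM and the other controls at 8.05 to 8.37 CPM. Lepr was flagged at 0.851, with control 1 at 5.60 CPM and the other controls at 1.69 to 2.27 CPM. Control 1 also had the highest meningeal and mesenchymal marker sum, 583 CPM, and the highest endothelial sum, 209.6 CPM. Its microglia and macrophage sum, 38.5 CPM, was the highest among controls. Control 4 had a meningeal and mesenchymal sum of 381 CPM and Lepr at 2.27 CPM. In control 3 these were 99.7 and 2.07 CPM. The part of these cells in the Lepr value was not tested. Control 3, the Foxp1 fl/fl control, had the highest sum of ventral telencephalic markers, 824 CPM against 232 to 515 CPM in the other 5 libraries.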

How the results depend on the processing

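The log2 fold change of Il31ra stayed between -1.46 and -1.26 under all alternatives. Because Il31ra was chosen on this contrast, no threshold is read for it. The log2 fold change of Osmr moved to 0.38 with limma, and was 0.78 to 1.06 when each library was left out. The sign of Stat3 changed with the replicate block, as far as -0.063, and its range was -0.092 to 0.094 when each library was left out. The other 6 members kept their sign throughout.

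Of all genes, edgeR called 26, DESeq2 507, limma 27, and edgeR with DESeq2's size factors 24. Leaving out each library gave 2 to 96, the highest without control 4. Pathway genes called were 0 with edgeR and in every leave-one-out fit, and 3 with DESeq2. Neighbors of Il31ra called were 1 with edgeR, 2 with DESeq2 (Esm1 and Dhx29) and 0 to 1 when each library was left out. Leaving out a labelled Foxp1cKO library leaves 1, which is assumed to vary like the controls.

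Replicate numbers 1 and 2 occur in both groups. Deviations of same-numbered libraries correlated at -0.198 and 0.0157, so the numbers were not treated as pairs. The replicate block called 0 of all genes and 0 neighbors. With the numbers crossed, chosen after seeing the data, the block called 1301 genes, 2 of the pathway (Ptpn11 and Socs2) and 4 neighbors (Cdc20b, Dhx29, Esm1 and Map3k1). With the longest transcript as length, control levels per kilobase were higher for 8 of the 9 genes, such as 64.4 for Cntfr and 30.6 for Il31ra. Osmr and Il6ra rest on under 200 counts per library, which limits their precision.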
